A study of Mus musculus with 6 samples.

Results

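The genes described here are 35 genes of G2 phase and mitosis, measured by bulk RNA-seq in PDVC57 cells, an established mouse squamous carcinoma line of keratinocyte origin. They are a list of named mitotic genes (kinases, cyclins, spindle, checkpoint, kinetochore and cytokinesis genes), looked up by symbol among the 55385 mouse gene rows of the count table. All 35 were found, and all 35 passed the filter on low counts. The study compared 3 libraries of cells labelled Sox2 KO (knockout of Sox2, a transcription factor of stem cells) with 3 libraries labelled Sox2 overexpression. Both groups share the PDVC57 line, and the series' design text describes them as Sox2-low and Sox2-high carcinoma cells taken from grafted tumours. The labels name no construct, treatment, number of clones, host strain or host age, and do not say whether the libraries came from separate tumours, so p-values measure only the spread between these samples.

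The genes of this list work in the last stage of the cell cycle. Cyclin-dependent kinase 1 with cyclins A and B drives entry into mitosis, the spindle and kinetochores attach and align the chromosomes, and the checkpoint holds back the anaphase-promoting complex until all are attached. That complex then marks cyclin B and securin for degradation, and the cytokinesis machinery parts the daughter cells. The transcripts of most of these genes peak together in G2 and mitosis, so in bulk RNA their level follows the share of cells in that stage as well as the level per cell. Their promoters are known for a short motif near the start site, the cell cycle homology region, and for CCAAT boxes, which recruit the DREAM and MMB complexes and the factor NF-Y.

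Promoter windows of 5 members are printed to show these motifs. They are the 4 members with the smallest p among those with both motifs, and Hmmr, a member whose fold change was below 0. The windows run from 250 bases before to 50 bases after the RefSeq start on GRCm38.p6, 5′ to 3′ on the gene's strand. They lie at chr7:80294201-80294500 (Prc1, plus strand), chr3:27153829-27154128 (Ect2, minus), chr2:164769679-164769978 (Ube2c, plus), chr10:69352863-69353162 (Cdk1, minus) and chr11:40733388-40733687 (Hmmr, minus). Capitals mark TTTGAA or TTCGAA (the cell cycle homology region) and CCAAT, each read on either strand.
Prc1: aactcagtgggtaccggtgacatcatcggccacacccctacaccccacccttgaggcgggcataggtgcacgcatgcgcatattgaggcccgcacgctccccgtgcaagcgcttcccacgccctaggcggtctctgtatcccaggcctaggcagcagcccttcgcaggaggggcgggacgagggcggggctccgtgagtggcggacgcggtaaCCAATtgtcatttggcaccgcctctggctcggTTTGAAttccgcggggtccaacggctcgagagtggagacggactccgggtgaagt
Ect2: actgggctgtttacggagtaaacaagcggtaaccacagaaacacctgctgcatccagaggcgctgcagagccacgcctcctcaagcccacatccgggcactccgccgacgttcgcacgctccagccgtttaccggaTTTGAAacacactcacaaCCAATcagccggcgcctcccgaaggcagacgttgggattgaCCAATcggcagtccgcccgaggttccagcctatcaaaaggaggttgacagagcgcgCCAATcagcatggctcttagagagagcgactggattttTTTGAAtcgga
Ube2c: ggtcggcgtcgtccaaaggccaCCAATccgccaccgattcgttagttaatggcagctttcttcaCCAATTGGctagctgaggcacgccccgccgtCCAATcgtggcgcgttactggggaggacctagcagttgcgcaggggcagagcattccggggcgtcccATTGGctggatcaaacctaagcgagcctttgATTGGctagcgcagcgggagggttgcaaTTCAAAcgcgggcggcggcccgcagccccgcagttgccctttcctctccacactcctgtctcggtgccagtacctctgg
Cdk1: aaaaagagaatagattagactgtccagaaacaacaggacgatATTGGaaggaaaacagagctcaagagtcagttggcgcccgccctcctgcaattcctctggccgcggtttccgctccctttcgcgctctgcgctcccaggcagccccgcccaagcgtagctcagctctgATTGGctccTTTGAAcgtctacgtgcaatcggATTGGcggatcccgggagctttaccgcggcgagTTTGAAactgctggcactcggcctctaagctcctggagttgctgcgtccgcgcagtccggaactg
Hmmr: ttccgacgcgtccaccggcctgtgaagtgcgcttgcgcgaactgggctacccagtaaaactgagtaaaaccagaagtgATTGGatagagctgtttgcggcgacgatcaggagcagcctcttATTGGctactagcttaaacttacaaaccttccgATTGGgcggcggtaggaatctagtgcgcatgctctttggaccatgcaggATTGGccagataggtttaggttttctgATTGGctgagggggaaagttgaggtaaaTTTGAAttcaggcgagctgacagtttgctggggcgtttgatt

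Of the 35 members, 29 had a window in the RefSeq table. TTTGAA or TTCGAA occurred in 23 of them (79.3%), against 19.2% of all 32851 windows of the same length. CCAAT occurred in 22 (75.9%), against 37.4% of all windows, and both motifs in 20 (69.0%), against 7.5%. The 2 motifs shared letters in 0 member windows and in 48 of all windows, and a match is a run of letters and not a measured binding site. Of the 32 matches to TTTGAA or TTCGAA in member windows, 22 began within 50 bases of the start (68.8%), against 25.2% of the matches in all windows. In Prc1 the match began 5 bases before the start and the single CCAAT 37 bases before it. Ube2c, whose motif reads TTCAAA on the printed strand, held 6 matches to CCAAT (the pair that reads CCAATTGG overlaps) and Hmmr held 5. Both motifs were present in 9 of 12 members that rose with Sox2 overexpression and in 11 of 17 that did not pass the test. Ccnb1 and Nusap1, which rose, had no TTTGAA or TTCGAA in the window, while Hmmr, which did not pass, had both motifs.

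The libraries held 31247976 to 38543221 counts over mouse genes. Sox2 had 25 to 49 counts in a knockout library and 2566 to 4095 in an overexpression library, so the level of the targeted gene matched the labels. Levels are given in CPM, counts scaled to a common library size with factors from the trimmed mean of M-values (TMM). A member had between 111 and 5382 counts in a library, so none was near the limit that a count of 0 allows, 3 counts. Marker genes of several cell types differed between the groups. All 10 fibroblast markers were lower with overexpression (edgeR, adjusted p under 0.05), with sums of 53223 to 82248 CPM in knockout and 284 to 472 CPM in overexpression libraries, and Col1a1, Col1a2 and Col3a1 made up 5.29% to 7.47% of knockout counts and 0.0249% to 0.0385% of overexpression counts. The 40 epithelial genes summed to 8123 to 12603 CPM in knockout and 21206 to 26535 CPM in overexpression libraries. Whether these fibroblast and epithelial genes differed through the mix of cells or within the carcinoma cells was not tested. Knockout replicate 3 had the highest sum of 5 general leukocyte markers, 263 CPM. That sum was 33.8 and 64.1 CPM in knockout replicates 1 and 2 and 2.08 to 4.40 CPM in the overexpression libraries. Macrophage markers did not follow this order. The 8 summed to 26.2, 27.1 and 29.2 CPM in knockout and 65.9, 54.4 and 25.5 CPM in overexpression replicates 1 to 3. Of the 6 tested, 1 was higher and 1 lower with overexpression (edgeR, adjusted p under 0.05).

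Many of the mitosis genes were higher with Sox2 overexpression under TMM scaling. Scaling to epithelial genes moved all genes down (79.6% of all tested genes were then lower) and put 30 of the 31 members that TMM had above 0 below it, while 31 members lay above the median of all genes on both scales. In the edgeR quasi-likelihood test across 18504 genes, 15 of the 35 members (42.9%) were higher with an adjusted p under 0.05 and 0 were lower, where 13.6% of all tested genes were higher and 3329 of them lower. The 15 members were Ube2c, Cdk1, Ect2, Ccnb1, Prc1, Ccna2, Plk1, Aurkb, Cdc20, Nusap1, Anln, Foxm1, Top2a, Cdc25b and Kif4, and 9 of them were at least 2-fold higher. The median log2 fold change of the members was 0.53, beside -0.016 over all tested genes, and the members ranged from -0.25 (Cdc25c) to 1.79 (Ube2c). For 19 members the lowest overexpression library lay above the highest knockout library, against 24.4% of all tested genes. The reverse, all overexpression libraries below all knockout libraries, was seen for 0 members and for 26.5% of all tested genes. Of the 20 members that did not pass, 16 had a fold change above 0 and 4, Cdc25c, Hmmr, Nuf2 and Mki67, a fold change below 0. With DESeq2, 17 members were higher and 0 lower, where 16% of all tested genes were higher and 18.7% lower. At an unadjusted p under 0.05 in edgeR 19 members were higher and 0 lower, and the share of all genes at that level was not counted. In bulk RNA a smaller share of carcinoma cells among all cells, a smaller share of dividing cells and less mitotic RNA per cell cannot be told apart.

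**Figure D1:**
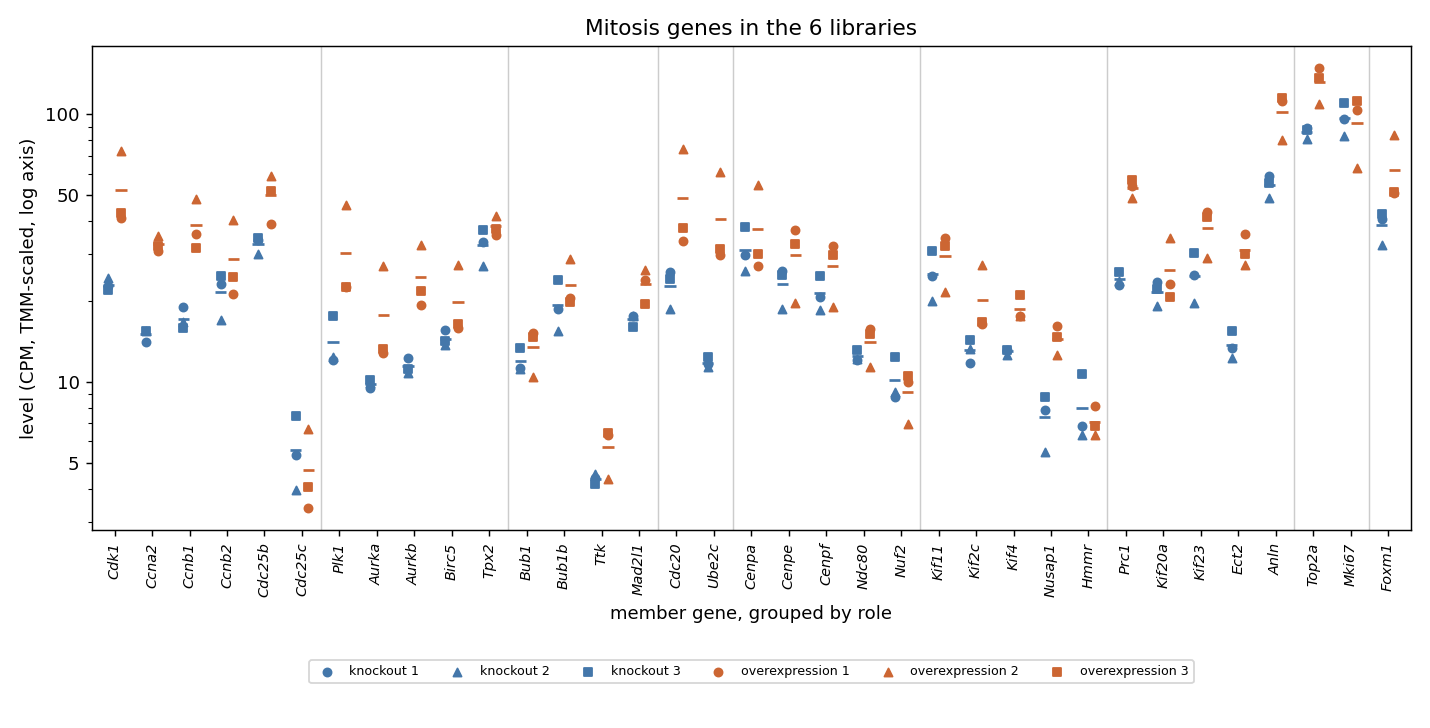
Level of each of the 35 mitosis genes in the 6 libraries (y axis, TMM-scaled CPM on a log axis), with genes on the x axis grouped by role between grey lines. Points are libraries (blue knockout, orange overexpression, shape by replicate) and short lines are group means of 3. For 19 genes all orange points lie above all blue points, and the orange triangle of overexpression replicate 2 is at the top or bottom of the orange points for every gene.

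The kinase that starts mitosis and its cyclins were among the genes that rose. Cdk1, the mitotic cyclin-dependent kinase, was at 22.8, 24.4 and 22.1 CPM in knockout replicates 1 to 3 and at 41.0, 73.1 and 42.8 CPM in overexpression replicates 1 to 3. The groups did not overlap, and overexpression replicate 2 stood above the other 2. Its log2 fold change was 1.18 ± 0.23 (standard error; adjusted p = 0.00504, edgeR). Ccna2, the cyclin of S phase and early mitosis, was at 14.1, 15.5 and 15.6 CPM with knockout and 30.9, 35.2 and 32.4 CPM with overexpression. Here the libraries of each group lay close together, and the log2 fold change was 1.12 ± 0.15 (standard error; adjusted p = 0.000618, edgeR). Ccnb1, which encodes cyclin B1, was at 19.1, 16.8 and 16.0 CPM with knockout and 35.7, 48.3 and 31.7 CPM with overexpression (log2 fold change 1.16, adjusted p = 0.00217, edgeR).

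The gene for the second B-type cyclin did not pass the test. Ccnb2 was at 23.2, 17.1 and 24.9 CPM with knockout and 21.4, 40.5 and 24.6 CPM with overexpression. The groups overlapped, and the log2 fold change of 0.40 did not pass the threshold (standard error 0.26, edgeR, adjusted p = 0.275). The ratio of Ccnb1 to Ccnb2 counts, which does not depend on how libraries are scaled, was 0.821, 0.983 and 0.640 in knockout and 1.67, 1.19 and 1.29 in overexpression libraries, without overlap. Cdc25b and Cdc25c encode phosphatases that activate Cdk1. Cdc25b rose from 32.8 ± 2.52 to 49.9 ± 10.1 CPM (mean and SD of 3 and 3 libraries; log2 fold change 0.60, adjusted p = 0.0338, edgeR), a call that was kept in 1 of the 6 fits leaving out 1 library, that without overexpression replicate 1, with adjusted p up to 0.124 in the others. Cdc25c was at 5.33, 3.94 and 7.48 CPM with knockout and 3.39, 6.70 and 4.05 CPM with overexpression (log2 fold change -0.25, edgeR, adjusted p = 0.621). The ratio of Cdc25b to Cdc25c counts was 6.36, 7.61 and 4.63 with knockout and 11.5, 8.79 and 12.8 with overexpression, again without overlap. These ratios were formed for the 4 pairs of related genes in the list after the values were seen, and were not tested. The other 2, Aurkb over Aurka and Bub1 over Bub1b, overlapped between the groups.

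Among the mitotic kinases and their cofactors, 2 of 5 genes rose, where 13.6% of all tested genes were higher in the edgeR test. The set is small, and its count was not tested against that share or against other roles. Aurkb, the kinase of the chromosomal passenger complex, was at 12.3, 10.8 and 11.2 CPM with knockout and 19.4, 32.5 and 21.9 CPM with overexpression. Every overexpression library was above every knockout library, and the log2 fold change was 1.10 ± 0.22 (standard error; adjusted p = 0.00551, edgeR). Plk1, the polo-like kinase of mitotic entry and spindle assembly, was at 12.1, 12.4 and 17.6 CPM with knockout and 22.6, 45.9 and 22.7 CPM with overexpression. Its log2 fold change of 1.11 passed the threshold (edgeR, adjusted p = 0.0242), but not without knockout replicate 1 (0.0693) or 2 (0.0853). Aurka, the centrosomal Aurora kinase, was at 9.47 to 10.2 CPM with knockout and 12.9, 27.1 and 13.3 CPM with overexpression, without overlap and short of the threshold (log2 fold change 0.84, edgeR, adjusted p = 0.0586). Without overexpression replicate 1 or 3 its adjusted p was 0.0312 or 0.0468. Birc5 (survivin, a passenger subunit, adjusted p = 0.175) and Tpx2 (the activator of Aurora A on the spindle, adjusted p = 0.32) had log2 fold changes of 0.45 and 0.23 in the same edgeR test. Birc5 was at 13.7 to 15.6 CPM with knockout and 15.9, 27.4 and 16.5 CPM with overexpression, just without overlap, while the groups of Tpx2 overlapped (27.0 to 37.1 and 35.5 to 41.8 CPM).

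Both partners of the anaphase-promoting complex rose, and Ube2c had the largest fold change of the 35 genes under TMM scaling. Ube2c, the ubiquitin-conjugating enzyme of that complex, was at 11.7, 11.3 and 12.4 CPM with knockout and 29.7, 61.0 and 31.5 CPM with overexpression. Even the lowest overexpression library stood far above the knockout libraries, which were close to each other, and the log2 fold change was 1.79 ± 0.28 (standard error; adjusted p = 0.00154, edgeR). Cdc20, the coactivator held by the spindle checkpoint, was at 25.7, 18.8 and 24.2 CPM with knockout and 33.7, 74.4 and 37.6 CPM with overexpression. Its log2 fold change was 1.08 (edgeR, adjusted p = 0.0251). Without knockout replicate 2 or 3 the adjusted p of Cdc20 was 0.0918 or 0.0517. Of 11 subunits of the complex itself, which are not members, 0 passed the edgeR test in either direction, with a median log2 fold change of -0.012. Over all tested genes 13.6% were higher and 3329 of 18504 lower. The set of 11 is small, and its difference from these shares or from the 2 partners was not tested. At an unadjusted p under 0.05, Anapc2 and Anapc11 were higher and Cdc23 lower, and with DESeq2 the first 2 passed.

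None of the 4 checkpoint genes and none of the 5 centromere and kinetochore genes passed the edgeR test or DESeq2, and at an unadjusted p under 0.05 in edgeR 1 did, Mad2l1. In the edgeR test 13.6% of all tested genes were higher and 3329 of 18504 lower. These sets of 4 and 5 genes are small, and their counts were not tested against those shares. Bub1 and Bub1b, which encode a checkpoint kinase and its relative BubR1, had log2 fold changes of 0.17 and 0.25, Ttk (the Mps1 kinase) 0.39 and Mad2l1 (Mad2) 0.44. The groups overlapped for Bub1 (11.2 to 13.4 CPM with knockout, 10.5 to 15.3 with overexpression), Bub1b (15.5 to 24.1 and 19.98 to 28.7) and Ttk (4.17 to 4.53 and 4.33 to 6.45). Mad2l1 was at 17.7, 17.6 and 16.1 CPM with knockout and 24.1, 26.2 and 19.5 CPM with overexpression, without overlap (adjusted p = 0.0804, edgeR). Cenpa, the histone H3 variant of centromeres, was at 29.8, 25.9 and 38.0 CPM with knockout and 27.1, 54.5 and 30.1 CPM with overexpression. Only overexpression replicate 2 was above the knockout range, and without it the log2 fold change of Cenpa went from 0.25 to -0.11. Cenpe, a kinetochore motor, was at 26.0, 18.8 and 25.2 CPM with knockout and 37.1, 19.8 and 32.9 CPM with overexpression, so that here the same library was the low one. Cenpf was at 18.6 to 25.0 CPM with knockout and 32.3, 19.1 and 29.9 CPM with overexpression. Without overexpression replicate 2, Cenpe and Cenpf had log2 fold changes of 0.60 and 0.55 and passed the edgeR test (adjusted p = 0.0421 and 0.0396). Ndc80 and Nuf2, partners in the complex that binds microtubules at the kinetochore, had log2 fold changes of 0.17 and -0.14, with levels of 12.1 to 13.2 and 8.82 to 12.4 CPM with knockout and 11.3 to 15.8 and 6.97 to 10.5 CPM with overexpression.

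Of the 5 genes for spindle motors and microtubule proteins, Nusap1 and Kif4 rose, beside 13.6% of all tested genes. With so few genes, a difference from that share or from other roles was not tested. Nusap1, a microtubule-bundling protein, was at 7.83, 5.49 and 8.83 CPM with knockout and 16.2, 12.6 and 14.7 CPM with overexpression (log2 fold change 0.97, edgeR, adjusted p = 0.0127). Kif4, a chromosome-bound motor, rose from 13.0 ± 0.295 to 18.8 ± 2.05 CPM (mean and SD of 3 and 3 libraries). The gain of 0.53 on the log2 scale passed the threshold (edgeR, adjusted p = 0.0378; 0.0587 with upper-quartile scaling and 0.07 with no filter), and its adjusted p was over 0.05 in 4 of the 6 fits that left out 1 library, those lacking knockout replicate 1 (0.0916), 2 (0.125) or 3 (0.0964) or overexpression replicate 3 (0.134). Kif2c, which takes apart microtubule ends, was at 11.8 to 14.3 CPM with knockout and 16.4, 27.4 and 16.7 CPM with overexpression (log2 fold change 0.62, edgeR, adjusted p = 0.0748, or 0.0499 without overexpression replicate 1). Kif11, the motor that pushes spindle poles apart, and Hmmr, a spindle assembly factor, had log2 fold changes of 0.22 and -0.17 with overlapping groups. Kif11 was at 20.04 to 30.9 CPM with knockout and 21.7 to 34.4 CPM with overexpression. Hmmr was at 6.35 to 10.7 and 6.36 to 8.12 CPM.

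Of the 5 cytokinesis genes, Prc1, Ect2 and Anln rose, beside 13.6% of all tested genes. This set too is small, and its count was not tested against that share or other roles. Prc1, which bundles the central spindle, was at 22.9, 23.8 and 25.7 CPM with knockout and 53.8, 48.6 and 56.7 CPM with overexpression. The 2 groups were far apart relative to their spread, and the log2 fold change was 1.13 ± 0.14 (standard error; adjusted p = 0.000428, edgeR), the smallest p among the members. Ect2, the exchange factor that turns on RhoA at the cleavage furrow, was at 13.4, 12.3 and 15.5 CPM with knockout and 35.8, 27.3 and 30.0 CPM with overexpression (log2 fold change 1.17, edgeR, adjusted p = 0.00121). Anln, the scaffold of the contractile ring, was at 58.9, 48.7 and 55.3 CPM with knockout and 112, 80.3 and 115 CPM with overexpression (log2 fold change 0.91, edgeR, adjusted p = 0.00455). Kif23, a motor of the central spindle, was at 25.0, 19.7 and 30.2 CPM with knockout and 43.0, 29.1 and 41.3 CPM with overexpression. Its groups overlapped through knockout replicate 3 and overexpression replicate 2, and its log2 fold change of 0.60 missed the threshold (edgeR, adjusted p = 0.0666, or 0.0255 without overexpression replicate 2). Kif20a, another motor of the central spindle, did not pass (log2 fold change 0.26, adjusted p = 0.381, edgeR), with 19.3 to 23.7 CPM in knockout and 20.8 to 34.4 CPM in overexpression libraries.

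Top2a and Mki67, both often used as markers of dividing cells, gave different calls, and the difference between them was not tested. Top2a, the topoisomerase that untangles chromosomes, was at 88.7, 81.1 and 87.2 CPM with knockout and 149, 109 and 136 CPM with overexpression. The log2 fold change was 0.62 (adjusted p = 0.017, edgeR), though the call was lost when knockout replicate 2 (0.0747) or 3 (0.0539) or overexpression replicate 3 (0.0525) was left out. Mki67, which encodes the Ki-67 coat protein of mitotic chromosomes, was at 96.3, 83.1 and 110 CPM with knockout and 104, 62.8 and 113 CPM with overexpression. The groups overlapped and the log2 fold change was -0.051 ± 0.23 (standard error; adjusted p = 0.884, edgeR). Foxm1, the transcription factor of G2 and mitosis genes, was at 40.5, 32.4 and 42.6 CPM with knockout and 50.8, 83.4 and 51.3 CPM with overexpression. Its log2 fold change of 0.68 had an adjusted p of 0.0466 (edgeR; 0.0554 with upper-quartile scaling), which was over 0.05 in 4 of the fits that left out 1 library, those lacking knockout replicate 1 (0.0869), 2 (0.156) or 3 (0.0728) or overexpression replicate 2 (0.0648). Of the 15 genes that rose, 9 passed in all 6 fits: Cdk1, Ccna2, Ccnb1, Aurkb, Ube2c, Nusap1, Prc1, Ect2 and Anln. The count of members that rose was 9 without knockout replicate 2 and 10 without knockout replicate 3. The share of all tested genes that were higher was also smaller in these 2 fits, 7.5% and 8.45%.

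Levels per kilobase of annotated exon put the members in order within a group. With overexpression the highest was Cdc20 at 26.0 CPM per kilobase, followed by Ccnb2 at 18.8, Ube2c at 15.7 and Top2a at 14.6, and the lowest were Ttk at 1.16 and Cdc25c at 0.958. With knockout, Ccnb2 (14.2) and Cdc20 (12.3) were highest and Ttk (0.885) lowest. Ube2c was at 4.53 CPM per kilobase there, below Mki67 (9.60), Top2a (9.50) and Tpx2 (6.95). Exon length is the union over all transcripts of the annotation, so a gene with rare long isoforms is set lower than it would be on its main transcript.

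Overexpression replicate 2 had the highest value of its group for 19 members and the lowest for the other 16. It was not far from its group in each of them: for Kif4 it was at 17.6 CPM like overexpression replicate 1, and replicate 3 stood apart at 21.1 CPM. Those 19 had a median transcript length of 2842 bases (1466 to 7557) and the 16 one of 3989 bases (2201 to 11130). Across the 35 members, the Spearman correlation between transcript length and the log2 deviation of this library from the mean of the other 2 was -0.63. The corresponding values were 0.69 and 0.44 for overexpression replicates 1 and 3, which are not independent of it, and 0.18, -0.05 and -0.09 for knockout replicates 1 to 3. Genes of 1 library share its depth and its preparation, and these correlations are descriptions. The pattern was also present over 14656 genes with a mean of at least 1 CPM (Spearman -0.37 for overexpression replicate 2). There the median deviation was 0.45 for transcripts of up to 1000 bases and -0.25 for those over 6000 bases. Single members had deviations from -0.82 (Cenpe) to 1.06 (Cdc20). Without this library 16 members were higher and 0 lower in the edgeR test, where 13.2% of all tested genes were higher and 16.3% lower. Of these 16 members, 13 were among the 15. With the trend on transcript length removed from each library, an alternative chosen after the data were seen, 18 members were higher. All 15 were among them, and Mad2l1, Cenpf and Kif23 were added. In that fit 14.4% of all tested genes were higher and 18.2% lower.

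**Figure D2:**
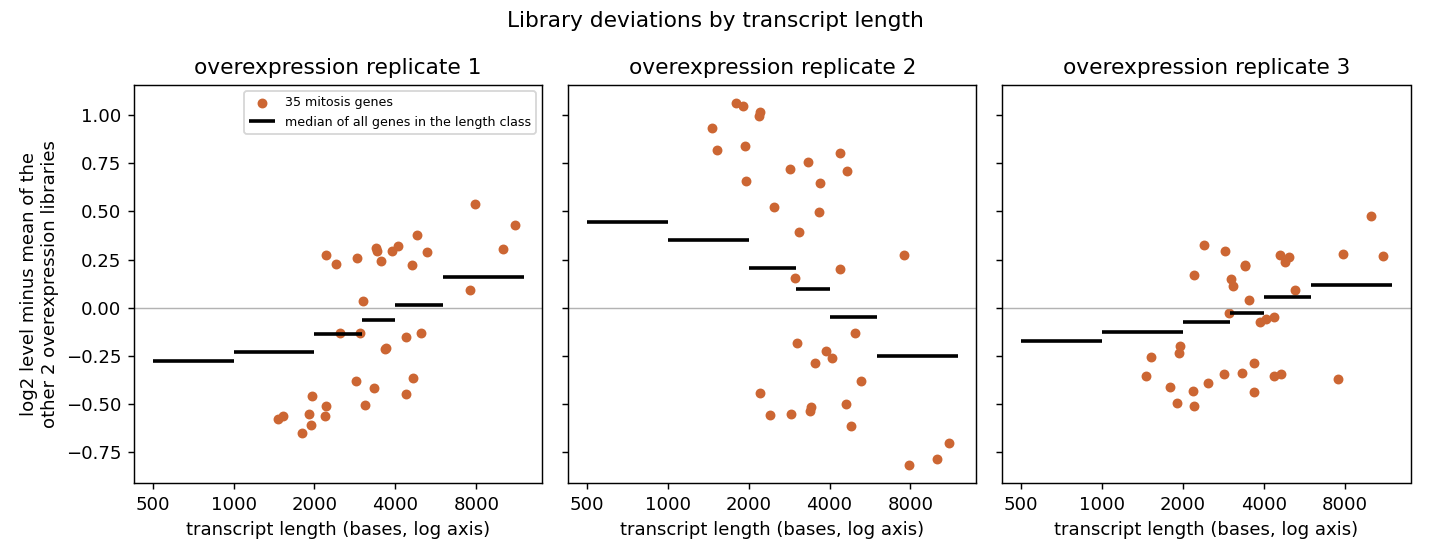
Each point is 1 of the 35 mitosis genes, with its transcript length in bases on the x axis (log axis) and, on the y axis, its log2 level in 1 overexpression library minus the mean of the other 2. Black bars are medians of all genes in a length class. In overexpression replicate 2 the short members lie as high as 1.06 and the long ones as low as -0.82, while replicates 1 and 3 slope the other way.

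The knockout libraries kept much the same order from member to member. Knockout replicate 3 was the highest of its group for 24 members and knockout replicate 2 the lowest for 24. The summed level of the 35 members was 822, 724 and 886 CPM in knockout replicates 1 to 3 and 1194, 1315 and 1202 CPM in overexpression replicates 1 to 3. Knockout replicate 3 was also the library with the highest sums of T and NK cell markers and of endothelial markers. Its 10 T and NK cell markers summed to 201 CPM, against 14.6 and 29.0 CPM in the other knockout libraries and 1.95 to 4.33 CPM with overexpression, and its 7 endothelial markers to 115 CPM, against 30.0, 50.6 and 12.3 to 19.5 CPM. Of the markers that passed the filter, 7 of 9 for T and NK cells and 5 of 6 for endothelium were lower with overexpression (edgeR, adjusted p under 0.05). The 5 B cell markers did not follow this order. They summed to 0.27 CPM in knockout replicate 3, 0.94 and 1.75 CPM in knockout replicates 1 and 2 and 0.30 to 0.43 CPM with overexpression. Without knockout replicate 3, all 35 members had a fold change above 0, with Hmmr at 0.11, Mki67 at 0.060, Nuf2 at 0.034 and Cdc25c at 0.024. How much of the members' RNA came from T and NK cells or endothelium was not tested.

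The direction of these genes was also read against other references. The 59 S phase genes summed to 1870 to 2033 CPM in knockout and 2252 to 3140 CPM in overexpression libraries. Of the 59, 12 (20.3%) were higher and 1 lower in the edgeR test with TMM scaling. All tested genes were 13.6% higher in that fit, and 3329 of 18504 were lower. The count of S phase genes was not tested against these shares. Summed over the list, members stood to S phase genes at 0.426, 0.387 and 0.436 in knockout and at 0.530, 0.419 and 0.525 in overexpression libraries. Overexpression replicate 2 lay within the knockout range, and the other 2 above it. Without Top2a and Mki67 the ratio was 0.331, 0.299 and 0.339 in knockout and 0.418, 0.364 and 0.417 in overexpression libraries, and the groups did not overlap. Top2a and Mki67 have long transcripts (5221 and 10061 bases) and were low in overexpression replicate 2 (log2 deviations -0.38 and -0.78). The part of that in the loss of overlap was not tested. The overexpression mean over the knockout mean was 1.18 with Top2a and Mki67 and 1.24 without them. When libraries were scaled to the S phase genes, which shifted the median of all genes to -0.36, 8 members were higher (Cdk1, Ccna2, Ccnb1, Plk1, Aurkb, Ube2c, Prc1 and Ect2) and 0 lower, where 5.05% of all tested genes were higher and 23.9% lower. The ratio of members to the 40 epithelial genes was 0.0652, 0.0636 and 0.109 with knockout and 0.0563, 0.0496 and 0.0480 with overexpression, so every overexpression library was below every knockout library. When libraries were scaled to the epithelial genes, the median of all genes was -1.28, 0 members were higher and 23 were lower (edgeR), where 79.6% of all tested genes were lower and 1.73% higher. On that scale the median member was at -0.74, which is 0.55 above the median of all genes, and Ube2c at 0.49 (adjusted p = 0.125) was the single member above 0. Epithelial genes themselves changed between the groups: 31 of 40 were higher under TMM, with a median log2 fold change of 1.21. As a share of all counts members made up 0.0847%, 0.0692% and 0.0903% in knockout and 0.125%, 0.121% and 0.123% in overexpression libraries. They were thus higher per count and lower per epithelial count, and the part of the non-epithelial RNA in either value was not tested.

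**Figure D3:**
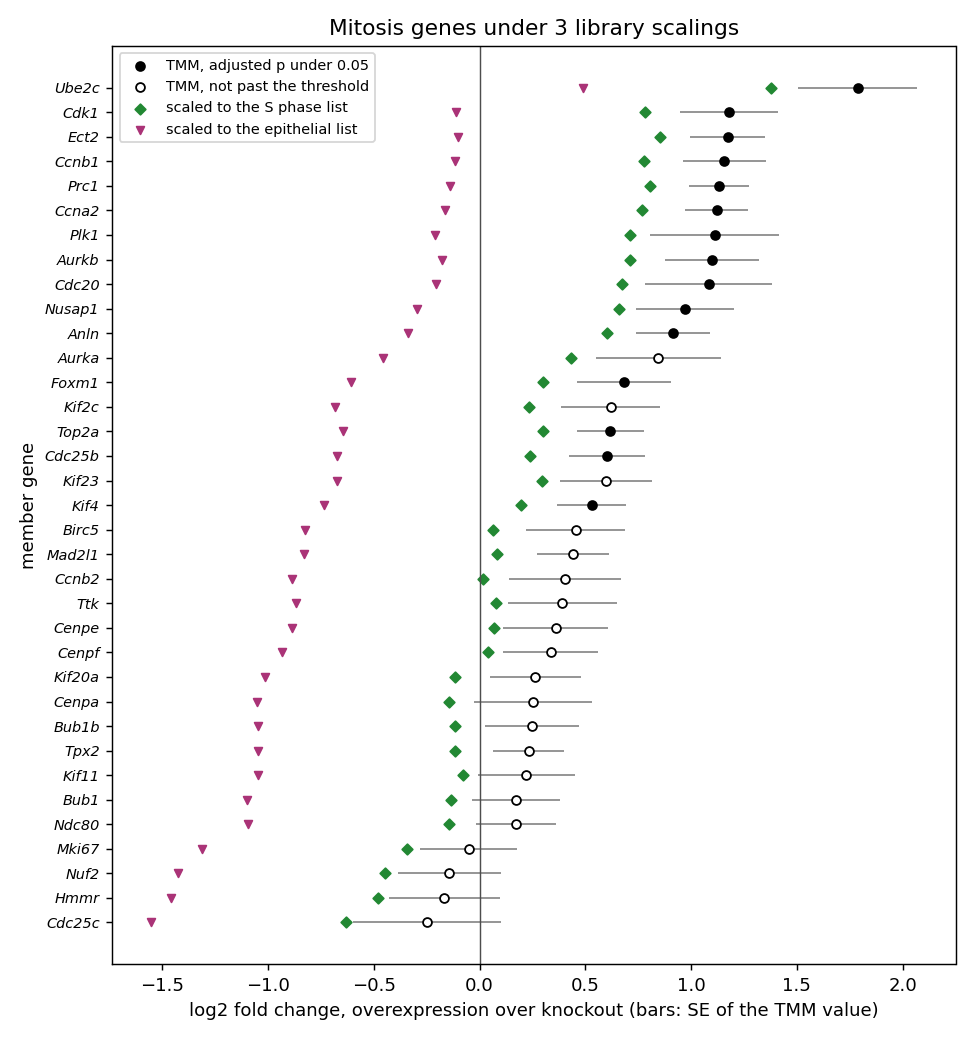
Log2 fold change of each mitosis gene (y axis), overexpression over knockout (x axis), with TMM scaling (circles, filled where the adjusted p was under 0.05, bars 1 standard error), scaled to S phase genes (green diamonds) and scaled to epithelial genes (purple triangles). Each gene shifts by a similar amount from scale to scale: 31 circles, 24 diamonds and 1 triangle lie above 0.

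**Figure D4:**
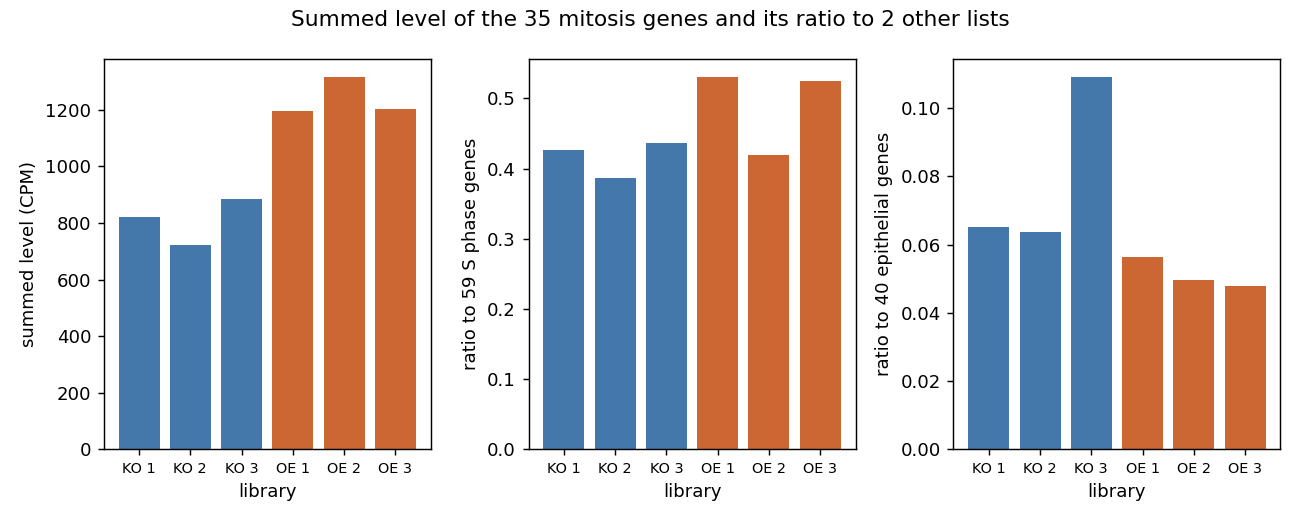
Bars give, for each library (KO knockout, OE overexpression, 1 to 3 the replicate), the summed CPM of the 35 mitosis genes, its ratio to the summed CPM of 59 S phase genes and its ratio to that of 40 epithelial genes. The sum is higher in each of the 3 overexpression libraries, the ratio to S phase genes overlaps through overexpression replicate 2 (0.419; 0.364 without Top2a and Mki67, above all 3 knockout libraries), and the ratio to epithelial genes is lower in all 3.

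Of 95 other genes of mitosis, which are not members, 31 (32.6%) were higher and 1 was lower in the edgeR test, with a median log2 fold change of 0.45. Among all tested genes 13.6% were higher in the same fit and 3329 of 18504 lower. The count of these 95 genes was not tested against those shares. The 5 other mitosis genes with the smallest p were Pbk, a mitotic kinase (log2 fold change 1.36), Cks2, a subunit of Cdk1 complexes (1.15), Iqgap3 (1.17), Racgap1, the partner of Kif23 in the central spindle (0.89), and Fam83d, a spindle protein (1.18), with adjusted p-values from 0.00325 to 0.00728, and each passed in all 6 fits that left out 1 library. Racgap1 was at 47.2, 45.3 and 51.4 CPM with knockout and 74.8, 111 and 80.4 CPM with overexpression, without overlap. The gene that fell was Psrc1, a microtubule-binding protein of the spindle, at 62, 142 and 129 counts with knockout and 2, 9 and 7 counts with overexpression. Its log2 fold change was -4.20 ± 0.60 (standard error; adjusted p = 0.000887, edgeR), opposite to the 15 members that passed. It too passed in all 6 of those fits. Psrc1 passed the filter on low counts through the knockout libraries, and overexpression replicate 1 was under the limit of 3 counts. The size of its fold change is therefore uncertain. The number that rose was 10 without knockout replicate 2 and 20 without knockout replicate 3, where 7.5% and 8.45% of all tested genes were higher.

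The regulators are 23 genes for subunits of the DREAM and MMB complexes, E2F, Myb and pocket proteins and NF-Y. Of these, 4 (17.4%) rose and 3 fell in the edgeR test, shares near those of all tested genes (13.6% higher, and 3329 of 18504 lower). Rbbp4, a histone-binding subunit shared by several chromatin complexes, rose from 123 ± 3.97 to 207 ± 35.7 CPM (mean and SD of 3 and 3 libraries; log2 fold change 0.75, adjusted p = 0.00799, edgeR). Nfyc (a subunit of NF-Y), Tfdp2 (an E2F partner) and Rb1 rose by log2 fold changes of 0.60, 0.59 and 0.67. Myb, which encodes c-Myb and not the B-Myb subunit of MMB, fell by 2.40 on the log2 scale. Its counts were few (15, 63 and 65 with knockout, 8 to 10 with overexpression). The repressors E2f8 and E2f6 fell by 0.52 and 0.57. With 1 library left out Rbbp4 passed in all 6 fits, Nfyc, Tfdp2 and Myb in 3 of them and Rb1, E2f8 and E2f6 in 1, that without overexpression replicate 2. The highest adjusted p in these fits was 0.0406 for Rbbp4, 0.0834 for Nfyc, 0.0937 for Tfdp2, 0.134 for Rb1, 0.0676 for Myb, 0.155 for E2f8 and 0.165 for E2f6. Nfyc missed the threshold when any 1 of the 3 knockout replicates was left out, Tfdp2 without knockout replicate 2 or 3 or overexpression replicate 3, and Myb without knockout replicate 2 or overexpression replicate 2 or 3. The count of regulators that rose was 2, 1 and 1 without knockout replicate 1, 2 and 3 and 2 without overexpression replicate 3, and 0 fell without knockout replicate 2 or overexpression replicate 3. It was 1 that fell without knockout replicate 1 or 3 or overexpression replicate 1. Among S phase genes the smallest p-values were those of Cdc45, the helicase cofactor (log2 fold change 1.11), Rrm1, a ribonucleotide reductase subunit (0.83), Cdt1, a licensing factor (0.94), Prim2, a primase subunit (0.77), and Gins2 (0.69), which rose, and Cdc7, the kinase that fires origins, fell by 0.86 (edgeR, adjusted p from 0.00401 to 0.0238 for these 6). Of these, Cdc45, Rrm1 and Cdt1 passed in all 6 fits that left out 1 library. Prim2 missed without knockout replicate 3 (0.0656) or overexpression replicate 3 (0.0531), Gins2 without knockout replicate 2 (0.0912) or 3 (0.0887), and Cdc7 without knockout replicate 2 (0.098) or 3 (0.0526) or overexpression replicate 2 (0.0518) or 3 (0.0767). The S phase genes that rose numbered 6, 4 and 5 without knockout replicate 1, 2 and 3 and 19 without overexpression replicate 1. Over all tested genes 9.2%, 7.5% and 8.45% were higher without knockout replicate 1, 2 and 3. Without overexpression replicate 1 or 3 it was 13% or 9.87%.

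The counting program's use of strand is not given in the sources used here, and 10 members have exons that coincide in part with an oppositely oriented gene. The longest such overlaps were those of Kif20a with Cdc23 (1271 bases), Prc1 with Rccd1 (911), Kif4 with Pdzd11 (832), Cdc25c with Gm3550 (623), Ube2c with Tnnc2 (592) and Ccna2 with Exosc9 (510). Reads from those stretches could have been assigned to either gene. On GRCm38, Ube2c lies on chromosome 2 (164769898 to 164778822), Prc1 on chromosome 7 (80294450 to 80316259), Ect2 on chromosome 3 (27097222 to 27153878), Ccna2 on chromosome 3 (36564865 to 36572150), Cdk1 on chromosome 10 (69335146 to 69352938) and Ccnb1 on chromosome 13 (100778650 to 100786570), all protein-coding genes.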

How the data were processed

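RNA was sequenced from 6 PDVC57 libraries, and each count column was matched to its sample by the sample's description. The authors deposited whole-number counts per gene, not normalized. Per the submitters' processing notes, kallisto 0.44.0 and mm10 were used, with no role given. Kallisto gives estimated counts, so the authors may have rounded them, and the counting program and the strand setting are not given in the sources used here. Of 55481 rows, 96 name no mouse gene (at most 2.23e-05% of a library) and were left out. Symbols and positions are those of GENCODE M21 (GRCm38).

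Genes were filtered with filterByExpr (minimum count 10, total 15), which kept 18504. TMM scaling and the quasi-likelihood test of edgeR 4.0.16 in R 4.3.3 compared the groups in 1 fit of all 6 libraries. Fold changes are overexpression over knockout, and p-values were adjusted by Benjamini-Hochberg over all tested genes (threshold 0.05). Standard errors are the log2 fold change divided by the square root of F. The fit was tested on simulated counts. Alternatives were other scalings, no filter, robust dispersion, DESeq2 1.42.0, a replicate block and leaving out each library. No batch is labelled.

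The members, lists and tests were chosen with earlier results of these data known. Named were all members, Sox2 and, in each pathway list, the 5 genes with the smallest p past the threshold in each direction. Transcript lengths are those of the longest protein-coding transcript, and deviations are of log2(CPM + 0.1).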

Additional observations from a re-analysis of the deposited data

How the results depend on the processing

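Scaled to the epithelial list, the median log2 fold change was -1.28 over all genes and -0.74 over members, 0.55 apart as with TMM. With this shift of all genes 30 members turned below 0, with log2 fold changes of Ect2 -0.10, Cdk1 -0.11, Ccnb1 -0.11, Prc1 -0.14, Ccna2 -0.16, Aurkb -0.18, Cdc20 -0.20, Plk1 -0.21, Nusap1 -0.29, Anln -0.34, Aurka -0.46, Foxm1 -0.61, Top2a -0.64, Kif23 -0.67, Cdc25b -0.68, Kif2c -0.68, Kif4 -0.74, Birc5 -0.83, Mad2l1 -0.83, Ttk -0.87, Ccnb2 -0.88, Cenpe -0.89, Cenpf -0.93, Kif20a -1.02, Tpx2 -1.05, Kif11 -1.05, Bub1b -1.05, Cenpa -1.05, Ndc80 -1.10, Bub1 -1.10. The counts of genes higher and lower were then 321 and 14729 over all genes, 0 and 23 for members, 0 and 61 for other mitosis genes, 0 and 22 for regulators and 0 and 49 for S phase genes, which the shift brings with it. Scaled to the S phase list, the members' median was 0.20, Tpx2 (-0.12), Bub1 (-0.14), Bub1b (-0.12), Cenpa (-0.14), Ndc80 (-0.14), Kif11 (-0.076) and Kif20a (-0.12) turned below 0, and the number higher was 934 of all genes, 8 members, 10 other mitosis genes, 0 regulators and 3 S phase genes, with 3 other mitosis genes, 6 regulators and 3 S phase genes lower. With no filter, where 36483 genes were tested, 20 S phase genes were higher and 1 regulator lower. Kif4 (adjusted p = 0.07) missed the threshold there. Upper-quartile scaling gave 13 members higher, without Kif4 (0.0587) and Foxm1 (0.0554), and 2 other mitosis genes lower. With the length trend removed, Mki67 was at 0.13. Over these alternatives and those with RLE, robust dispersion, DESeq2 and the block, the epithelial scaling alone called a member lower.

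With 1 library left out, genes higher ranged from 1446 to 2599 (lower 2784 to 3256), members from 9 to 17 (lower 0), other mitosis genes from 10 to 29 (lower 1 to 2), regulators from 1 to 6 (lower 0 to 2) and S phase genes from 4 to 19 (lower 0 to 1). The members' median ran from 0.47 to 0.60. Signs turned for Cdc25c (-0.57 to 0.024), Nuf2 (-0.24 to 0.039), Hmmr (-0.30 to 0.11) and Mki67 (-0.19 to 0.18), highest without knockout replicate 3 or, for Nuf2 and Mki67, overexpression replicate 2, and for Cenpa (-0.11 to 0.46), lowest without overexpression replicate 2.

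Replicate numbers are shared between groups, and the labels do not say whether they pair the samples. Deviations of same-numbered libraries had correlations of 0.051, 0.022 and -0.040. Those of libraries with different numbers ran from -0.067 to 0.05, so these values cannot show whether samples were paired. In the fit with a replicate block 14 members were higher and 0 lower, Kif4 (adjusted p = 0.0664) and Foxm1 (0.066) missed the threshold, Kif23 (0.0284) passed it, no other member changed its call, and 1 regulator was lower. Depth was not the limit for members, which had at least 111 counts in a library.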

Other observations

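The 95 other mitosis genes hold several complexes, whose counts are given beside the 13.6% of all tested genes that were higher. Of 7 further mitotic kinesins, Kif18b, Kif22 and Kifc1 rose in the edgeR test, with a median log2 fold change of 0.71 over the 7. Of 8 condensin genes, which compact chromosomes, Ncapg and Ncaph2 rose, and the median was 0.31. Of 13 genes for inner centromere proteins, Cenpm, Oip5 and Mis18a rose, and of 12 outer kinetochore and Ska complex genes Spc25 and Bub3 did, with medians of 0.44 and 0.23. Of 5 genes for sister chromatid cohesion and its release, Cdca5 and Sgo2a rose (median 0.58). None of the genes in these groups fell past the threshold. The groups were drawn up after the values of the whole list were known, and differences between them were not tested.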
